A study of Homo sapiens with 33 samples.

Results

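The STAT and SOCS genes carry cytokine signals to the nucleus and switch them off again. The 9 genes examined here were taken by symbol from the gene tables, 6 STAT genes (STAT2, STAT3, STAT4, STAT5A, STAT5B, STAT6) and 3 SOCS genes (SOCS1, SOCS2, SOCS3), out of 29744 genes listed. Their messenger RNA was followed across 11 high grade serous ovarian cancer cell lines and between each platinum-resistant line and the sensitive line of its family. SOCS2 and SOCS3 rose in some families and fell in others, STAT5A was listed at 0 in OVCAR3 ResA, and STAT2, STAT3, STAT5A, STAT5B, SOCS2 and SOCS3 were all higher in OVCAR4 ResB than in its sister line OVCAR4 ResA.

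When a cytokine binds its receptor, Janus kinases bound to the receptor tails phosphorylate STAT proteins, which pair up, enter the nucleus and switch on genes carrying their DNA sites. SOCS proteins are among the genes switched on, and they close the loop by blocking the kinase or the receptor or by marking them for breakdown. In ovarian cancer the pathway is best known for STAT3 activity downstream of interleukin-6 and for STAT2 in the interferon response. Messenger RNA levels do not report phosphorylation, so the activity of these proteins was not measured.

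The study sequenced RNA from 33 libraries, 3 for each of 11 lines in 4 families, to compare platinum-sensitive lines with resistant relatives. OVCAR3 and OVCAR4 are sensitive lines. OVCAR3 ResA, OVCAR3 ResB, OVCAR4 ResA and OVCAR4 ResB are resistant derivatives that the study selected, independently of each other, by repeated short pulses of cisplatin with recovery in between, and none is kept in the drug. PEA1 (sensitive) and PEA2 (resistant) came from 1 patient, and PEO1 (sensitive), PEO4 and PEO6 (both resistant) came from another. Medium with serum was used throughout, with insulin added for OVCAR3 and OVCAR4, and the RNA came from cultures described without a drug treatment. This gives 7 resistant-sensitive pairs and 3 comparisons between resistant sisters. The labels name only the line, so the sensitive and resistant roles are taken from the study's text. Pairs within the OVCAR3, OVCAR4 and PEO families share their sensitive libraries and are not independent of each other. Nothing in the labels says that the 3 libraries of a line are separate cultures, so p-values measure only the spread between these libraries.

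Depth was 18058985 to 43394009 estimated counts per library. Epithelial identity was checked with 8 Müllerian epithelial markers, of which 6 to 8 averaged at least 1 TPM (transcripts per unit of depth, scaled for transcript length) in each line. PEA1 had the lowest summed level of this list, 403 to 445 TPM against at least 2389 TPM in every library of the other lines. It also had the highest summed level of 7 stromal and endothelial markers, 69.5 to 116 TPM. Nearly all of that sum was COL1A1 (mean 88.4 TPM) and PDGFRB (6.55 TPM). In PEA1 the means of COL1A2, PECAM1 and VWF were 0.012, 0.057 and 0.011 TPM, and DCN and CDH5 were at 0. SOX17 was listed at 0 in PEO1 and PEO4. Leukocyte markers (10 genes, summed 0.284 to 7.22 TPM) were low, with CD3D and MS4A1 at 0 in all lines. PTPRC and CD14 averaged 3.30 and 2.89 TPM in PEA2, against 0 and 0.323 TPM in PEA1, and CD14 averaged 3.02 TPM in PEO1. Of the endothelial markers, CDH5 averaged 7.02 TPM in PEA2, and PECAM1 6.76 ± 5.95 TPM (SD, n = 3) in OVCAR3 ResB. Mitochondrial ribosomal RNA took a varying share of the counts in the OVCAR4 family. It made up 5.18%, 14.8% and 12.0% in the 3 OVCAR4 libraries, 9.23%, 2.02% and 2.09% in OVCAR4 ResA, and 13.1%, 2.47% and 2.39% in OVCAR4 ResB. On the log2(TPM + 1) scale the median of all genes was 0.47 higher in OVCAR4 ResB and 0.44 higher in OVCAR4 ResA than in OVCAR4, and 0.14 and 0.11 higher in OVCAR3 ResA and OVCAR3 ResB than in OVCAR3. TPM is therefore given as a level per library, and every log2 fold change below comes from DESeq2 on counts, whose medians over all genes lay within 0.03 of 0. In bulk RNA, fewer cells making a transcript and less of it per cell cannot be told apart.

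The genes lie on 4 chromosomes (RefSeq positions on GRCh38.p14). STAT4 is at chr2:191029576-191151596. STAT2 (chr12:56341597-56360107), STAT6 (chr12:57095408-57111362) and SOCS2 (chr12:93569969-93626236) share chromosome 12. SOCS1 is at chr16:11254417-11256204. STAT5B (chr17:42199177-42288370), STAT5A (chr17:42287439-42311943), STAT3 (chr17:42313324-42388442) and SOCS3 (chr17:78356778-78360925) share chromosome 17, and the first 3 of these follow one another. The annotated spans of STAT5B and STAT5A overlap, and the genes are close copies. Of the 31-base words in the main STAT5A transcript, 687 of 4271 (16.1%) also occur in the main STAT5B transcript, so salmon had to divide shared reads between the pair. Whether strand was used in counting is not given in the sources used here. STAT5A and STAT5B values are therefore uncertain singly and are also given as a sum.

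The SOCS genes are known targets of STAT proteins, and the 250 bases upstream of annotated starts were searched on both strands for the STAT dimer letters TTCNNNGAA and for GAAANNGAA, letters found in the interferon-stimulated response element bound by ISGF3. Both motifs end in GAA and can share letters. RefSeq windows were found for 8 members (12 windows, some genes having several starts), and SOCS2 had no entry. None of the 12 windows held the STAT dimer letters, which 6.57% of 35116 windows of all genes held. SOCS1 held the only GAAANNGAA match, 113 bases before its start, against 6.88% of all windows. A window without these letters says nothing about binding elsewhere. The windows of SOCS1 (chr16:11256205-11256454, minus strand), SOCS3 (chr17:78360926-78361175, minus strand), STAT2 (chr12:56360108-56360357, minus strand), STAT3 (chr17:42388443-42388692, minus strand) and STAT5A (chr17:42287189-42287438, plus strand, inside the span of STAT5B) are printed 5′ to 3′ from RefSeq on GRCh38.p14. They show the feedback gene that held a match beside SOCS3, STAT2, STAT3 and STAT5A, and capitals mark the match.
SOCS1: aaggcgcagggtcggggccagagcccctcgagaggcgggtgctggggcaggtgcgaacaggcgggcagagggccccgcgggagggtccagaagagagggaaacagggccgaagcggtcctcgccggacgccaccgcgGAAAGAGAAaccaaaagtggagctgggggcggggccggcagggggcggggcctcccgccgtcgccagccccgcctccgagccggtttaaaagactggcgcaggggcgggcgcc
SOCS3: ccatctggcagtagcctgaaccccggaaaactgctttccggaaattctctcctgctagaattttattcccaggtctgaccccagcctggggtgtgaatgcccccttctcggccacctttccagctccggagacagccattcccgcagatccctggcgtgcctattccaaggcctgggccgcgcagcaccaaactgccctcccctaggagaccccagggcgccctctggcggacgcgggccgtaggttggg
STAT2: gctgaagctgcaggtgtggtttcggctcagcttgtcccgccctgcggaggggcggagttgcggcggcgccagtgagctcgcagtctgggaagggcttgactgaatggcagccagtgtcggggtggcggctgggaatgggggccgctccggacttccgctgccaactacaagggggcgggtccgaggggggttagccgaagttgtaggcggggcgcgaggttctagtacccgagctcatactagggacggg
STAT3: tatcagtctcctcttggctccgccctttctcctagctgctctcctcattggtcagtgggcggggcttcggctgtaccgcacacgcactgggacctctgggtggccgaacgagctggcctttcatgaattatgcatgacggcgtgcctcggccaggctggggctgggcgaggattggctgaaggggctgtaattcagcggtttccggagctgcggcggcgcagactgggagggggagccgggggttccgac
STAT5A: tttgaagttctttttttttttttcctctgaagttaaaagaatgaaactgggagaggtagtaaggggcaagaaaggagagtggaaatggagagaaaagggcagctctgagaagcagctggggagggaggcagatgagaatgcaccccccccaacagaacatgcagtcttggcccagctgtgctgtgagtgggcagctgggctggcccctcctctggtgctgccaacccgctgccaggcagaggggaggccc

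STAT3, which carries interleukin-6 signals, had line means of 23.6 to 82.3 TPM. STAT6, which carries interleukin-4 signals, had line means of 6.76 to 60.2 TPM, with OVCAR3 and OVCAR3 ResA at the low end and there below STAT2. STAT2 ran from 6.94 to 25.1 TPM and STAT5B from 4.09 to 31.3 TPM. STAT4, known from lymphocytes, stayed at or under 0.906 TPM in every line mean. The ratio of the highest to the lowest line mean was 3.49 for STAT3, 3.61 for STAT2, 5.97 for SOCS1, 7.66 for STAT5B and 8.90 for STAT6, against 40.7 for SOCS2 and 52.1 for SOCS3. The SOCS2 and SOCS3 ranges were thus wider than those of any STAT gene detected in all lines.

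**Figure D1:**
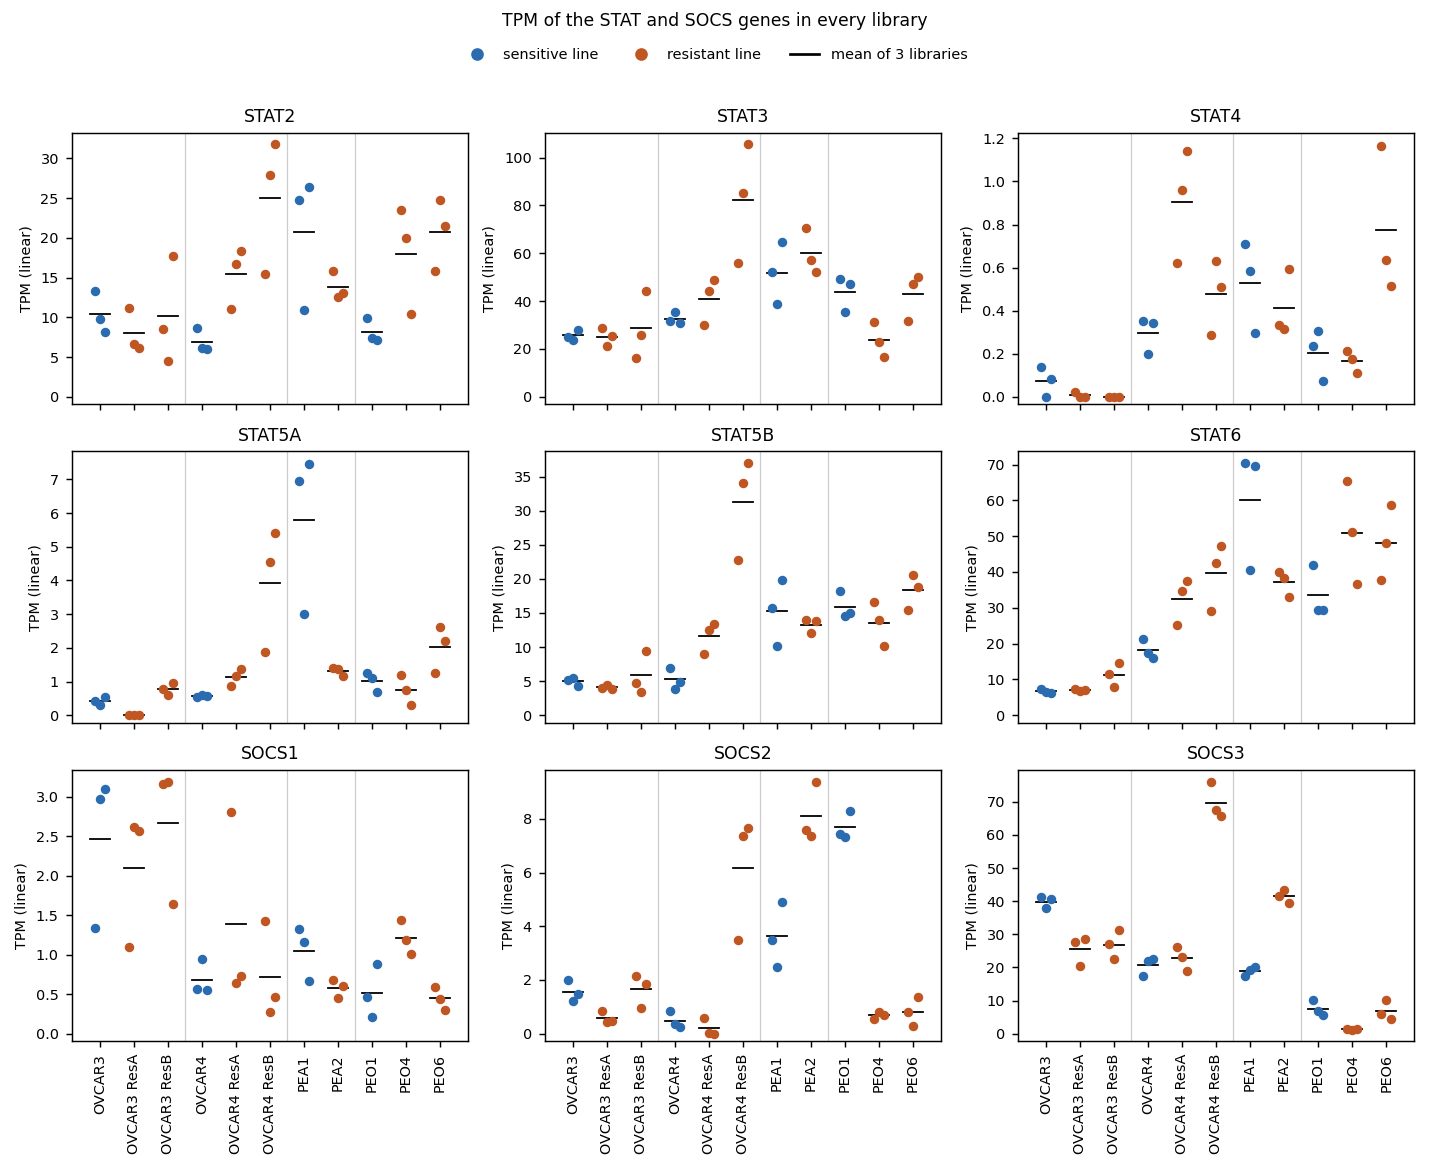
Level of each of the 9 genes in TPM (vertical axes, linear) in the 11 lines (horizontal axes); each point is 1 library, each black line the mean of 3, and blue marks sensitive and orange resistant lines. SOCS3 is highest in OVCAR4 ResB (65.6 to 75.9 TPM) and lowest in PEO4 (1.22 to 1.54 TPM), and STAT5A is at 0 in all 3 OVCAR3 ResA libraries.

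A member was called when its DESeq2 Wald test (replicate number and line in the model, Benjamini-Hochberg adjustment over all genes tested) gave an adjusted p under 0.05. Over the 63 member-by-pair combinations, 12 were higher in the resistant line, 11 lower, 39 were not called and 1 had no adjusted p. Over all genes in the 7 pairs together, 15.0% of tests were called higher and 14.8% lower.

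In OVCAR3 ResA, 5 of 9 members were called and all 5 were lower than in OVCAR3, where 22.9% of all genes tested were called lower and 22.0% higher. The median log2 fold change of all 9 members was -0.53, or -0.39 with the near-absent genes set at the bound that 3 counts per library allow. In OVCAR3 ResB none of the 8 members with an adjusted p was called by DESeq2 or by edgeR, and 1 had an unadjusted p under 0.05. Among all genes in that pair, 4.10% were higher and 3.57% lower.

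In OVCAR4 ResA none of the 9 was called by DESeq2 or edgeR, 3 had an unadjusted p under 0.05, and the background was 6.68% higher and 5.22% lower. The deviations of equally numbered libraries from their line means were negatively correlated in this pair (r = -0.34 to -0.06). Without the replicate block STAT2 (DESeq2 adjusted p = 0.0137) and STAT5B (0.0120) were called higher. With all 33 libraries in the fit STAT5B was called higher (0.00201) and SOCS2 lower (log2 -1.77, adjusted p = 0.0266). Without replicate 1, STAT2 (0.00283) and STAT5B (0.00172) were called higher, and SOCS2 (0.0157) and SOCS3 (log2 -0.85, adjusted p = 0.000684) lower. OVCAR4 ResB gave 5 calls, all higher than in OVCAR4, where 9.09% of genes tested were higher and 8.77% lower. The median of the 9 members was 1.19 on the log2 scale in OVCAR4 ResB and 0.33 in OVCAR4 ResA.

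In PEA2, 2 members were higher and 2 lower than in PEA1, beside 23.3% and 23.8% of all genes. In PEO4, 2 were higher and 3 lower than in PEO1, beside 16.6% and 16.7%. In PEO6, 3 were higher and 1 lower than in PEO1, beside 21.2% and 20.3%. These shares of 9 genes are not far from the background in the PEA and PEO families, and their medians were -0.15, -0.22 and 0.17.

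**Figure D2:**
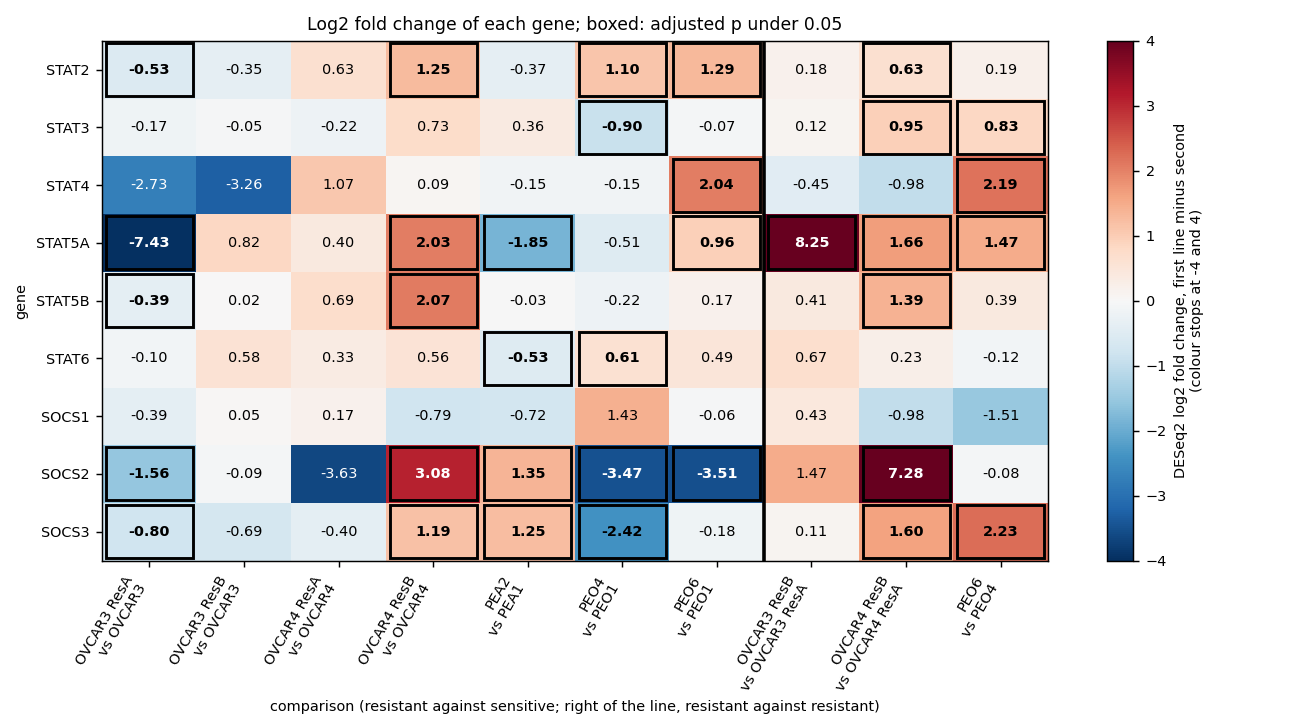
Heat map of the DESeq2 log2 fold change of the 9 genes (rows) in the 7 resistant-sensitive pairs and the 3 comparisons between resistant sister lines (columns); red is higher in the first-named line, blue lower, colour stops at 4 either way, and boxes mark an adjusted p under 0.05. SOCS2 is blue in PEO4 and PEO6 (-3.47 and -3.51) and red in OVCAR4 ResB and PEA2 (3.08 and 1.35).

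SOCS2 restrains growth hormone and STAT5 signalling and was called in 5 of 7 pairs, 2 higher and 3 lower. In PEO1 its level was 7.45, 7.32 and 8.29 TPM in replicates 1 to 3. PEO4 had 0.529, 0.813 and 0.697 TPM, and PEO6 had 0.795, 0.269 and 1.38 TPM. All 6 resistant libraries of this family lay below all 3 PEO1 libraries. The fall was 11.1-fold in PEO4 (log2 -3.47, SE 0.31, DESeq2 adjusted p = 4.66e-27) and 11.4-fold in PEO6 (log2 -3.51, SE 0.43, adjusted p = 1.11e-14). PEO4 and PEO6 did not differ detectably in SOCS2 (log2 -0.08, 95% interval -1.49 to 1.32).

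The same gene rose in PEA2, from 3.49, 2.49 and 4.89 TPM in PEA1 to 7.60, 7.35 and 9.36 TPM. The libraries did not overlap, and the rise was 2.54-fold (log2 1.35, SE 0.29, DESeq2 adjusted p = 1.36e-05). In OVCAR3 it was 1.99, 1.22 and 1.46 TPM and in OVCAR3 ResA 0.827, 0.448 and 0.483 TPM, a 2.95-fold fall (adjusted p = 0.000865) that was not called without replicate 1 (adjusted p = 0.0811) or without replicate 3 (0.0711). OVCAR3 ResB, at 2.14, 0.954 and 1.85 TPM, overlapped its parent.

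In the OVCAR4 family, SOCS2 separated the sister lines. OVCAR4 had 0.838, 0.370 and 0.257 TPM. OVCAR4 ResA had 0.571, 0.026 and 0 TPM, resting on 23, 1 and 0 counts. OVCAR4 ResB had 3.51, 7.36 and 7.66 TPM, above every library of its relatives. Against OVCAR4 the rise in OVCAR4 ResB was 8.48-fold (log2 3.08, SE 0.54, DESeq2 adjusted p = 4.17e-07). Against OVCAR4 ResA it was also called (log2 7.28, SE 1.84, adjusted p = 0.000438). The size of that change depends on counts of 1 and 0, and without replicate 2 the call was lost (adjusted p = 0.153).

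SOCS3, the feedback inhibitor of interleukin-6 receptor signalling, was called in 4 pairs, 2 higher and 2 lower. OVCAR4 held 17.5, 21.9 and 22.5 TPM and OVCAR4 ResA 26.2, 23.1 and 18.8 TPM, whereas OVCAR4 ResB held 75.9, 67.6 and 65.6 TPM. The OVCAR4 ResB libraries were the highest of all 33 for this gene. Its change was 3.02-fold against OVCAR4 ResA (log2 1.595, SE 0.11, DESeq2 adjusted p = 2.76e-41) and 2.28-fold against OVCAR4 (log2 1.19, SE 0.39, adjusted p = 0.0197). The latter call was lost with edgeR (adjusted p = 0.105), without replicate 2 (0.111) and without replicate 3 (0.178).

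SOCS3 also rose in PEA2, from 17.4, 19.3 and 20.3 TPM in PEA1 to 41.5, 43.4 and 39.4 TPM (2.38-fold, log2 1.25, SE 0.23, DESeq2 adjusted p = 3.59e-07). PEA2 is thus a pair in which SOCS2 and SOCS3 were both higher, as they were in OVCAR4 ResB. In the PEO family SOCS3 was low to begin with, at 10.3, 6.70 and 5.53 TPM in PEO1. PEO4 had 1.54, 1.22 and 1.27 TPM, a 5.34-fold fall (log2 -2.42, SE 0.29, adjusted p = 4.57e-15). PEO6, at 6.05, 10.1 and 4.44 TPM, overlapped PEO1 (log2 -0.18, 95% interval -0.76 to 0.40) and was 4.70-fold above PEO4 (log2 2.23, SE 0.42, adjusted p = 3.38e-06, or 0.0696 without replicate 2). Both resistant PEO lines were therefore low in SOCS2, and they parted in SOCS3.

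In OVCAR3, SOCS3 was 41.2, 37.9 and 40.5 TPM, and both derivatives lay below it without overlap. OVCAR3 ResA had 27.7, 20.4 and 28.5 TPM (1.74-fold lower, log2 -0.80, SE 0.13, DESeq2 adjusted p = 1.36e-08). OVCAR3 ResB had 27.0, 22.4 and 31.2 TPM and a log2 change of -0.69 (SE 0.32) that was not called (adjusted p = 0.227). Without the replicate block it was called (DESeq2 adjusted p = 0.0430), as it was with the mitochondrial share in place of the block (log2 -0.70, adjusted p = 0.000351). Ordered by line mean, SOCS3 ran from OVCAR4 ResB (69.7 TPM) through PEA2 (41.4), OVCAR3 (39.9), OVCAR3 ResB (26.9), OVCAR3 ResA (25.5), OVCAR4 ResA (22.7), OVCAR4 (20.7), PEA1 (19.0), PEO1 (7.50) and PEO6 (6.87) to PEO4 (1.34). Neighbours in this order were separated without overlap at 4 of 10 steps, namely below OVCAR4 ResB, below OVCAR3, below PEA1 and below PEO6.

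SOCS1, which blocks Janus kinases directly and is induced by interferons, was called in none of the 7 pairs by DESeq2 or edgeR, and none had an unadjusted p under 0.05. Its counts were low, 5 to 51 per library. The 3 OVCAR3 family lines had the highest means (2.10 to 2.66 TPM) and PEO6 the lowest (0.446 TPM), and no neighbours in the order of the lines were without overlap. The value furthest from 0 was in PEO4, with 1.44, 1.18 and 1.01 TPM against 0.463, 0.216 and 0.882 TPM in PEO1 (log2 1.43, 95% interval -0.10 to 2.95, adjusted p = 0.156). At this depth a change of that size in SOCS1 was not distinguishable from the spread of the libraries.

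STAT2 joins IRF9 in the interferon-driven complex ISGF3, and it rose in both resistant PEO lines. PEO1 had 9.88, 7.44 and 7.20 TPM, PEO4 23.5, 20.0 and 10.5 TPM, and PEO6 15.9, 24.7 and 21.5 TPM. Every resistant library exceeded every PEO1 library. The rise was 2.14-fold in PEO4 (log2 1.10, SE 0.19, DESeq2 adjusted p = 1.83e-07) and 2.44-fold in PEO6 (log2 1.29, SE 0.24, adjusted p = 1.02e-06). OVCAR4 ResB, at 15.5, 27.9 and 31.8 TPM against 8.67, 6.14 and 6.03 TPM in OVCAR4, was 2.38-fold higher (log2 1.25, SE 0.33, adjusted p = 0.00184), a call lost without replicate 2 (adjusted p = 0.201) and without replicate 3 (0.385). STAT2 fell in OVCAR3 ResA, where 11.2, 6.67 and 6.18 TPM overlapped the 13.3, 9.84 and 8.19 TPM of OVCAR3 although each numbered library was lower (log2 -0.53, SE 0.15, adjusted p = 0.00126, or 0.155 without the replicate block and 0.0934 without replicate 2). In PEA2 it was 15.8, 12.6 and 13.0 TPM, within the 10.97 to 26.3 TPM of PEA1.

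ISGF3 target genes, a list of 11 that includes MX1, OAS1, OAS2, IFIT1 to IFIT3, ISG15, IFI6, IFI27, IFI44L and IRF9, also rose in the PEO family. All 11 were called higher in PEO4 (median log2 4.36) and all 11 in PEO6 (median 4.28), with the median of all genes at 0.01 and 0.02. Over all genes 16.6% and 21.2% were called higher in these pairs. MX1, an antiviral GTPase, averaged 3.39 TPM in PEO1, 330 TPM in PEO4 and 209 TPM in PEO6. IFI44L, an interferon-induced gene, averaged 0.693 TPM in PEO1 and 75.8 TPM in PEO6 (log2 7.02). In PEA2 the list moved the other way, with 8 lower and 1 higher (median -1.70), beside 23.8% and 23.3% of all genes. STAT2 itself was not called there (log2 -0.37, DESeq2 adjusted p = 0.214). With the mitochondrial share in place of the replicate number, a fit chosen after the data were seen, STAT2 was called lower in PEA2 (log2 -0.87, adjusted p = 4.78e-05). IFI44L fell by 3.77 on the log2 scale there, and IFI27 was the gene that rose (3.24).

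In the OVCAR families fewer of the list were called. OVCAR4 ResA had 5 of the 11 higher (median 1.84, MX1 3.31), beside 6.68% of all genes. STAT2 there was 11.1, 16.7 and 18.4 TPM, above all 3 OVCAR4 libraries, with a log2 change of 0.63 that was not called (DESeq2 adjusted p = 0.209) but was called without the block (0.0137) and without replicate 1 (0.00283). OVCAR4 ResB had 2 of the list higher and 1 lower (median 0.69), beside 9.09% and 8.77% of all genes. OVCAR3 ResB had 6 higher (median 1.45, IFI27 2.96), beside 4.10% of all genes, with STAT2 at -0.35 and not called. OVCAR3 ResA had 3 higher and 3 lower (median 0.07), beside 22.0% and 22.9% of all genes. OAS1, an RNA-sensing synthetase, fell there by 4.71 on the log2 scale. Across the 7 pairs, 39 of the 77 list-by-pair combinations were higher, 12 lower, 24 not called and 2 without an adjusted p. That is 52.0% higher and 16.0% lower of those with one, beside 15.0% and 14.8% over all genes. The list was chosen with earlier results of these data known, so these shares are a description only. OVCAR3 ResB was above OVCAR3 ResA for 6 of the 11 genes, beside 7.47% of all genes. OVCAR4 ResB was below OVCAR4 ResA for 4, beside 16.5% of all genes. PEO6 differed from PEO4 for 4 (1 higher, 3 lower), beside 9.86% higher and 8.33% lower over all genes.

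**Figure D3:**
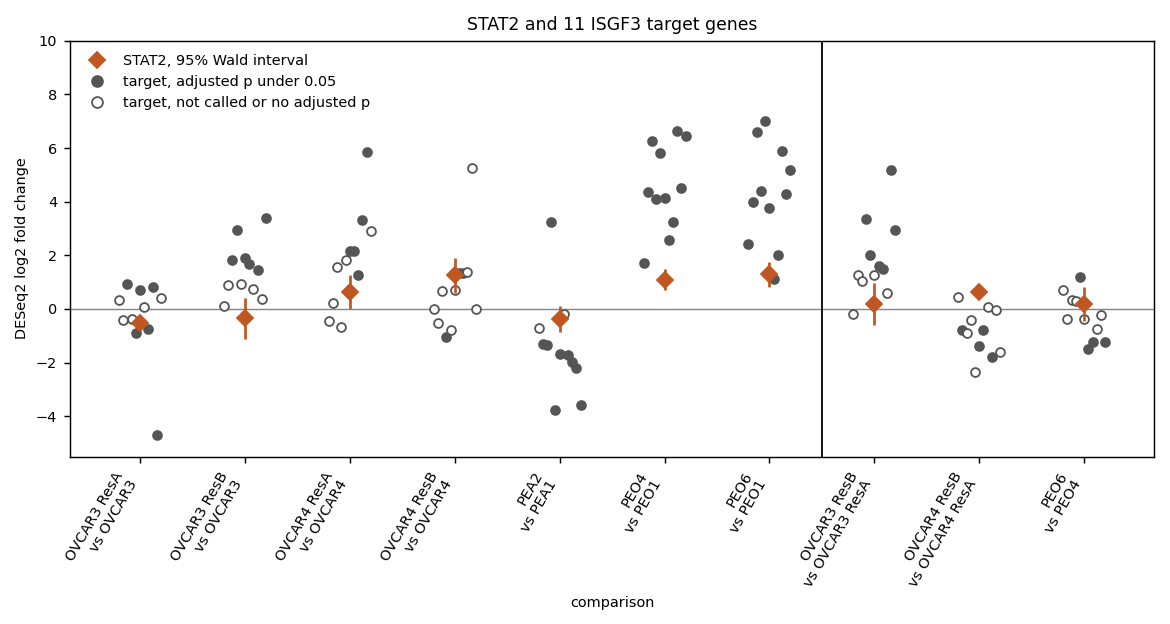
DESeq2 log2 fold change (vertical axis) of STAT2 (diamonds, with 95% Wald intervals) and of the 11 ISGF3 target genes (circles, filled where the adjusted p is under 0.05) in the 10 comparisons (horizontal axis), with the 7 resistant-sensitive pairs left of the vertical line. In PEO4 and PEO6 STAT2 is at 1.10 and 1.29 and all 11 targets are above 0, while in PEA2 most targets lie below 0 with STAT2 at -0.37.

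STAT3 was called in 1 of 7 pairs. PEO4, with 31.1, 23.1 and 16.5 TPM, lay below the 49.3, 35.4 and 47.3 TPM of PEO1 (1.86-fold lower, log2 -0.90, SE 0.18, DESeq2 adjusted p = 9.43e-06). PEO6 had 31.6, 46.9 and 50.01 TPM and was not called against PEO1 (log2 -0.07, 95% interval -0.52 to 0.37). PEO4 thus had the lowest STAT3 and the lowest SOCS3 of its family. PEO6 against PEO4 gave 0.83 (adjusted p = 0.0479), lost with edgeR (0.0898), without replicate 2 (0.627) and without replicate 3 (0.0812).

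OVCAR4 ResB had the highest STAT3, 56.0, 85.0 and 106 TPM, against 30.2, 44.03 and 48.7 TPM in OVCAR4 ResA and 31.5, 35.2 and 30.8 TPM in OVCAR4. Its libraries lay above those of both relatives. The difference from OVCAR4 ResA was 1.94-fold (log2 0.95, SE 0.09, DESeq2 adjusted p = 5.68e-22), and that from OVCAR4 was 0.73 on the log2 scale (SE 0.31, adjusted p = 0.0827) and not called. The latter was called without the block (adjusted p = 0.0183), with all 33 libraries in the fit (0.00434) and without replicate 1 (0.000477).

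STAT5A and STAT5B respond to growth hormone, prolactin and several interleukins. Both were 4-fold or more higher in OVCAR4 ResB than in OVCAR4. STAT5B was 6.93, 3.91 and 4.94 TPM in OVCAR4, 9.02, 12.6 and 13.4 TPM in OVCAR4 ResA and 22.8, 34.0 and 37.01 TPM in OVCAR4 ResB, so that the 3 lines did not overlap. Its rise was 4.20-fold against OVCAR4 (log2 2.07, SE 0.32, DESeq2 adjusted p = 6.15e-09) and 2.62-fold against OVCAR4 ResA (log2 1.39, SE 0.10, adjusted p = 1.63e-38). STAT5A was lower throughout, 0.537, 0.607 and 0.566 TPM in OVCAR4, 0.869, 1.16 and 1.36 TPM in OVCAR4 ResA and 1.86, 4.54 and 5.41 TPM in OVCAR4 ResB. It rose 4.09-fold against OVCAR4 (log2 2.03, SE 0.44, adjusted p = 8.16e-05) and 3.16-fold against OVCAR4 ResA (log2 1.66, adjusted p = 2.39e-07), and the first of these calls was lost without replicate 2 (0.0722) and without replicate 3 (0.215). Summed, the pair rose by 2.07 against OVCAR4 (adjusted p = 5.13e-09) and by 1.41 against OVCAR4 ResA (adjusted p = 3.26e-41).

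In OVCAR3 ResA the genes differed in the size of their change. STAT5A was listed at 0 in all 3 OVCAR3 ResA libraries, against 0.422, 0.316 and 0.540 TPM in OVCAR3 (36.7, 19.0 and 29.0 counts) and 0.790, 0.611 and 0.950 TPM in OVCAR3 ResB. Taking 3 counts per library as the floor, it was at least 10.8-fold lower than in OVCAR3 (DESeq2 adjusted p = 5.00e-07, or 0.156 without replicate 1) and at least 18.7-fold lower than in OVCAR3 ResB. The sum of both genes did not differ detectably between OVCAR3 ResB and OVCAR3 ResA (log2 0.58, adjusted p = 0.368). STAT5B in the same lines was 3.94, 4.42 and 3.89 TPM in OVCAR3 ResA and 5.15, 5.45 and 4.33 TPM in OVCAR3 (log2 -0.39, adjusted p = 0.0496), a call lost under 10 of 13 alternatives. Against OVCAR3 the sum fell by 0.49 (adjusted p = 0.00931).

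In PEA2, STAT5A fell from 6.96, 3.003 and 7.46 TPM in PEA1 to 1.40, 1.38 and 1.17 TPM (3.62-fold, log2 -1.85, SE 0.33, DESeq2 adjusted p = 1.55e-07). STAT5B did not pass (log2 -0.03, 95% interval -0.48 to 0.43), and the sum was not called (log2 -0.29, adjusted p = 0.318). PEA1 also carried the COL1A1 and PDGFRB RNA given above, and any link of that RNA to the STAT5A level was not tested. STAT5A in PEO6 (1.25, 2.62 and 2.21 TPM) lay just above PEO1 (1.24, 1.09 and 0.702 TPM), with a log2 change of 0.96 (adjusted p = 0.0384). That call was lost under 8 of 13 alternatives, the sum among them (0.22, adjusted p = 0.460).

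STAT6 was called in 2 pairs. PEO4 had 65.4, 51.2 and 36.6 TPM against 41.97, 29.5 and 29.4 TPM in PEO1, overlapping but higher in each numbered library (1.53-fold, log2 0.61, SE 0.16, DESeq2 adjusted p = 0.00102, or 0.137 without replicate 1). PEA2 had 39.9, 38.4 and 33.1 TPM against 70.5, 40.7 and 69.5 TPM in PEA1 (log2 -0.53, adjusted p = 0.0489), a call lost under 7 of 12 alternatives. The OVCAR3 lines formed the low end for this gene, with line means of 6.76 to 11.3 TPM.

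STAT4 was near the detection limit, with 0 to 58 counts per library. OVCAR3 ResB was listed at 0 in all 3 libraries. Its 1 call among the pairs was in PEO6, with 58, 29 and 26 counts against 8, 16 and 3 in PEO1 (log2 2.04, SE 0.78, DESeq2 adjusted p = 0.0251), and it was not called when any replicate was left out (adjusted p = 0.0914 to 0.354).

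Resistant lines of one family were also compared with each other, the independently selected ResA and ResB derivatives and the PEO4 and PEO6 lines of 1 patient. OVCAR4 ResB exceeded OVCAR4 ResA in 6 of 9 members and was lower in none of those called, beside 16.2% of all genes higher and 16.5% lower. These were STAT2, STAT3, STAT5A, STAT5B, SOCS2 and SOCS3. edgeR called these and 2 more, STAT6 higher (0.24, adjusted p = 0.0413) and STAT4 lower (-0.97, adjusted p = 0.0421). STAT2 was 1.55-fold higher (log2 0.63, SE 0.11, DESeq2 adjusted p = 2.52e-07, or 0.0654 without the replicate block). PEO6 exceeded PEO4 in 4 (STAT3, STAT4, STAT5A, SOCS3), beside 9.86% higher and 8.33% lower. Of these, STAT4 was lost when any replicate was left out (DESeq2 adjusted p = 0.0698 to 0.567). STAT5A was lost under 7 of 13 alternatives, the sum among them (0.45, adjusted p = 0.329). OVCAR3 ResB exceeded OVCAR3 ResA in STAT5A, beside 7.47% higher and 6.04% lower, and 1 further member had an unadjusted p under 0.05. Without the replicate block STAT6 (0.67, adjusted p = 0.0419) and SOCS2 (1.47, adjusted p = 0.0163) were called there too.

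Since 4 libraries of the OVCAR4 family had over 9% mitochondrial ribosomal RNA, the OVCAR4 ResB comparisons were refitted without them and, separately, with that share as a covariate in place of the replicate number. Both refits were chosen after the data were seen. The first leaves 1 OVCAR4 library, which is assumed to vary like the 2 libraries left of the resistant line, so its values are given as a description and its p-values are not printed. With the covariate the 5 calls against OVCAR4 were made again, and STAT3 (0.76, DESeq2 adjusted p = 0.00327) and STAT6 (0.52, adjusted p = 0.00493) were called as well. STAT2 was 1.10 and 1.37, STAT5B 1.93 and 1.97, SOCS2 2.72 and 2.66 and SOCS3 1.52 and 1.47 on the log2 scale with the covariate and without the 4 libraries. For OVCAR4 ResA the covariate fit called no member, with STAT2 at 0.47 (adjusted p = 0.0882) and STAT5B at 0.45 (adjusted p = 0.0769). Without the 4 libraries these were 0.68 and 0.57.

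**Figure D4:**
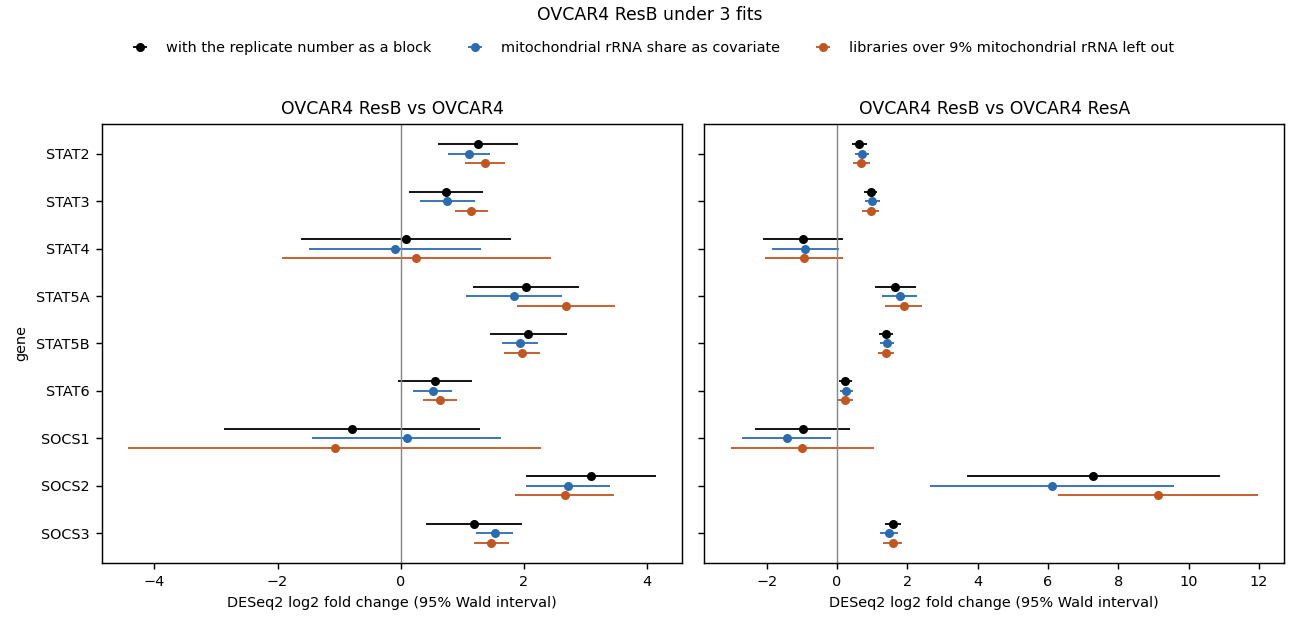
DESeq2 log2 fold change (horizontal axis) of each gene (rows) in OVCAR4 ResB against OVCAR4 and against OVCAR4 ResA under 3 fits: replicate number in the model, mitochondrial ribosomal RNA share in its place, and libraries over 9% of that RNA left out; bars are 95% Wald intervals. The values of STAT2, STAT5A, STAT5B, SOCS2 and SOCS3 are above 0 in all 3 fits against OVCAR4. Against OVCAR4 the third fit holds 1 OVCAR4 library, so its bars do not measure the spread of that line.

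STAT3, STAT5A and STAT5B are neighbours on chromosome 17, so the 5 nearest expressed genes on each side, 10 in all (chr17:42025576-42566277), were read beside them. Against OVCAR4 ResA, 5 of the 10 neighbours were called higher in OVCAR4 ResB and 1 lower, with a median of 0.69 and a range of -1.54 to 1.03. STAT3 (0.95) lay within that range and STAT5A (1.66) and STAT5B (1.39) above it. Over all genes in that comparison 16.2% were called higher and 16.5% lower. Similar neighbour counts were seen in other pairs. In PEO6 against PEO1, 5 were higher and 1 lower, beside 21.2% and 20.3% of all genes. In OVCAR3 ResA against OVCAR3, 4 were higher and 2 lower, beside 22.0% and 22.9%. Against OVCAR4, 8 of the 10 were above 0 (median 0.73, range -1.72 to 1.28), but none was called higher and 1, PTRF, a caveolar coat gene, was called lower. Over all genes in OVCAR4 ResB against OVCAR4, 9.09% were called higher and 8.77% lower, and the median was -0.005. DNA copy number was not measured here. In PEA2 the 10 neighbours had a median of 0.22 and ranged from -0.71 to 2.01, beside -1.85 for STAT5A.

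**Figure D5:**
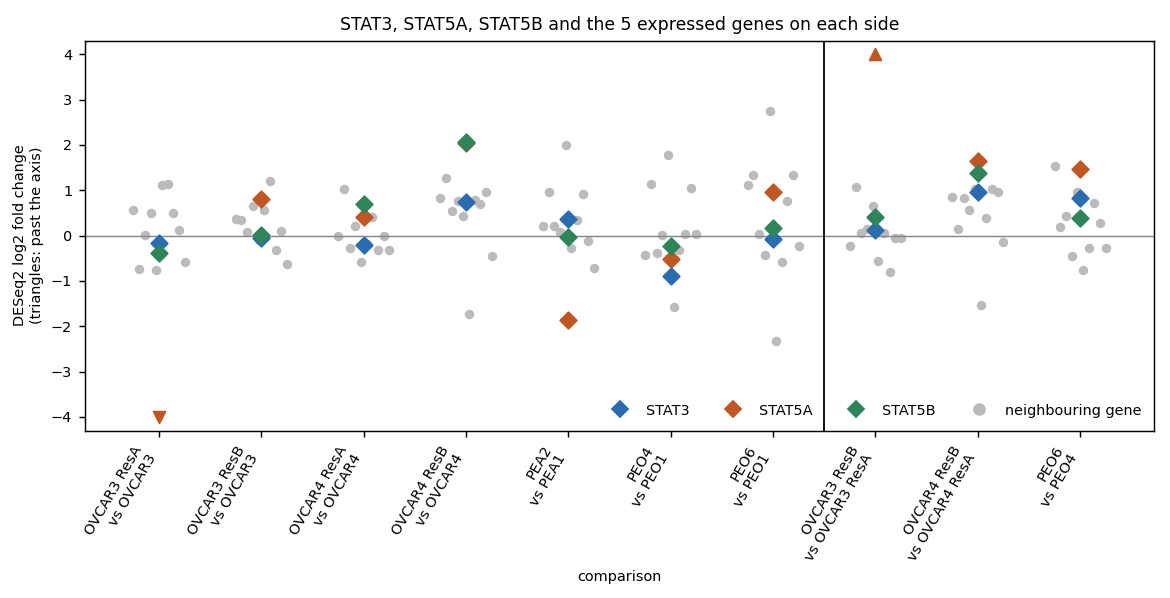
DESeq2 log2 fold change (vertical axis) of STAT3, STAT5A, STAT5B (diamonds, triangles where past the axis) and their 10 nearest expressed neighbours on chromosome 17 (grey) in the 10 comparisons (horizontal axis). In OVCAR4 ResB against OVCAR4 ResA the neighbours centre on 0.69, with STAT5A at 1.66 and STAT5B at 1.39 above all 10.

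The rest of the pathway was read from gene lists that were chosen with earlier results of these data known. Among 5 other SOCS box genes, 6 of 35 combinations with the 7 pairs were higher and 4 lower. That is 17.1% and 11.4% of those tested, near the 15.0% and 14.8% over all genes. CISH, like SOCS2 a feedback gene of STAT5 signalling, averaged 12.2 ± 1.93 TPM (SD, n = 3) in PEO1, 0.844 ± 0.176 TPM in PEO4 and 0.652 ± 0.256 TPM in PEO6. It fell by 3.84 and 4.26 on the log2 scale (DESeq2 adjusted p = 1.08e-37 and 4.50e-31), beside log2 changes of -3.47 and -3.51 for SOCS2 in the same lines. STAT5B was not called in either line, and STAT5A was called only in PEO6, higher. CISH was not called in OVCAR4 ResB or PEA2, where SOCS2 rose. SOCS5 and SOCS4, less studied relatives, gave the largest change of the list in OVCAR3 ResA (1.26) and PEA2 (1.11). SOCS6 fell by 0.53 in OVCAR4 ResB against OVCAR4 ResA.

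Of the 4 Janus kinases, which phosphorylate the STAT proteins, 3 of 28 combinations (10.7%) were higher and 5 (17.9%) lower. Over all genes these shares were 15.0% and 14.8%. JAK1 fell by 1.28 in OVCAR3 ResA and by 1.10 in PEO6. JAK2 rose by 1.31 in OVCAR4 ResB, from 0.846 ± 0.398 to 3.14 ± 0.383 TPM (SD, n = 3), and fell by 0.88 in PEA2. TYK2 fell by 0.48 in PEO4.

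Cytokine receptor subunits, 24 genes that bring the kinases to the membrane, gave 37 higher and 33 lower of 168 combinations, with 17 lacking an adjusted p, or 24.5% and 21.9% of those with one, beside 15.0% and 14.8% over all genes. IL4R, the interleukin-4 receptor chain upstream of STAT6, rose by 2.55 in PEA2, 2.21 in OVCAR4 ResB and 1.72 in OVCAR3 ResB, and fell in PEO4 and PEO6, by 2.32 in the latter. STAT6 fell in PEA2, a call lost under 7 of 12 alternatives, and rose in PEO4, lost under 2 of 12. Receptor and transducer were thus called in opposite directions in those 2 pairs. In the other pairs named, STAT6 was called only under alternatives. With all 33 libraries in the fit it was higher in OVCAR4 ResB (0.57, DESeq2 adjusted p = 0.00244) and OVCAR3 ResB (0.56, 0.00812), where IL4R rose. That fit also called it higher in PEO6 (0.52, 0.00517), where IL4R fell. IL6ST, the signalling chain shared by the interleukin-6 family, rose in 3 pairs (1.13 in OVCAR4 ResA) and fell in 1. LIFR was higher in 2 and lower in 3, OSMR higher in 3 and lower in 3, LEPR higher in 3 and lower in 1, IL10RB higher in 4 and lower in 2, and IL27RA higher in 2 and lower in 2. IL7R was lower in 4 pairs and higher in none, falling by 4.13 in PEO6, and GHR, the growth hormone receptor, was higher in 1 and lower in 3. CSF2RA rose by 5.52 in OVCAR3 ResA.

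Other negative regulators, 10 phosphatases, PIAS proteins and adaptors, gave 6 higher (8.57%) and 13 lower (18.6%) of 70 combinations. Over all genes these shares were 15.0% and 14.8%. Of the 13 lower calls, 6 were in OVCAR3 ResA and 5 in PEA2, where 22.9% and 23.8% of all genes were called lower. SH2B3, an adaptor that restrains JAK2, fell by 2.38 in PEA2 and by 1.21 in PEO6. USP18, which damps interferon receptors, was higher in 2 pairs (1.78 in PEO4) and lower in 2. PIAS3, an inhibitor of STAT3, rose by 0.92 in OVCAR3 ResA and by 0.85 in OVCAR4 ResB, and PTPN1, a phosphatase, rose by 0.50 in OVCAR4 ResB against OVCAR4 ResA.

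STAT3 target genes (12) were higher in 17 and lower in 6 of 84 combinations, or 21.2% and 7.50% of the tests with an adjusted p, beside 15.0% and 14.8% over all genes. In OVCAR4 ResB against OVCAR4, 3 were lower and 0 higher, beside 8.77% and 9.09% of all genes. CCND1, the cyclin of early cell cycle, fell there by 3.06, and by 3.63 against OVCAR4 ResA. In PEO4, 4 of the 12 were higher and 0 lower, beside 16.6% and 16.7% of all genes. LCN2, an iron-binding secreted protein, rose there by 1.15. FOS, a component of AP-1, was higher in 4 pairs. SERPINA3, an acute-phase gene, had at most 3 counts in each PEA1 library and was at least 1829-fold higher in PEA2, and HP, haptoglobin, was at least 66.4-fold higher in PEO6 than in PEO1. TIMP1 fell by 2.06 in OVCAR3 ResA, and PIM1, a kinase gene on the STAT3 and STAT5 lists, rose by 1.08 in OVCAR3 ResB. STAT5 target genes (6) gave 8 higher and 5 lower of 42 combinations, or 22.9% and 14.3% of those with an adjusted p. ID1, an inhibitor of differentiation, was higher in 3 pairs and lower in 2.

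A likelihood ratio test over all 33 libraries asked whether the resistant-sensitive effect of a gene differed between the 7 pairs. It was called for 8 of 9 members, all but SOCS1 (DESeq2 adjusted p = 0.281), and for 70.2% of all genes tested. A single effect across lines, tested on counts summed per line with family in the model, was called for none of the members, with 0.286% of all genes called. No member had an unadjusted p under 0.05 in that test and edgeR called none. The values ran from -0.62 for SOCS2 (SE 0.91) to 0.36 for STAT2 (SE 0.35, unadjusted p = 0.312). The test rests on 7 resistant and 4 sensitive lines.

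Across the 11 line means, on the log2(TPM + 1) scale, the STAT genes varied together, as a description over lines that share families, libraries and depth. Between STAT genes r ran from 0.56 (STAT2 with STAT3) to 0.86 (STAT5B with STAT6). It was 0.79 between STAT2 and STAT5B and 0.79 between STAT3 and STAT5A. SOCS1 gave a negative r with each STAT gene, from -0.75 with STAT6 to -0.30 with STAT2. SOCS2 gave -0.01 with STAT4 to 0.70 with STAT3, and 0.30 with SOCS3. Among 13185 genes with at least 5 TPM in some line, the patterns most like STAT5B were those of FANCM (r = 0.96), CYLD (0.96) and TBC1D15 (0.95). For STAT2 they were NAA40 (0.94), GATC (0.93) and CHD6 (0.91), for STAT3 SRR (0.94), CC2D1B (0.93) and CRYL1 (0.93), and for STAT5A MYLK (0.97), NBPF1 (0.93) and OVCA2 (0.92). STAT6 was closest to SLC25A32 (0.95) and PTER (0.95), and STAT4 to DUSP1 (0.93) and SDHAP2 (0.92). The SOCS genes were closest to PSMC5 (0.96) and PAX8 (0.94) for SOCS1, C1QTNF1 (0.93) and CDKL1 (0.88) for SOCS2, and TOP3B (0.95) and NIPSNAP1 (0.94) for SOCS3.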

How the data were processed

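RNA-seq was run on 33 libraries, 3 per line. The authors aligned and quantified reads with the nf-core/rnaseq pipeline and salmon against GRCh38, and deposited merged gene tables. The deposited expected counts are the estimated counts salmon gave the authors per gene, not normalised. The deposited TPM values were scaled by the authors for transcript length and depth. Of the deposited count values, 88.4% were whole numbers. The tables list 29744 genes, 4956 of them at 0 in every library. Expected counts were rounded, and each comparison was fitted on its 6 libraries in DESeq2 1.42.0 (R 4.3.3) with replicate number and line, no filter, a Wald test and Benjamini-Hochberg adjustment at 0.05, the tool the study names. edgeR 4.0.16 quasi-likelihood, limma 3.58.1 on log2(TPM + 1) and log2(TPM + 0.1) with genes of at least 1 TPM in 3 libraries or no filter, TMM size factors, a filter of 10 counts in 3 libraries, all 33 libraries in 1 fit, no replicate block, each replicate left out, and STAT5A plus STAT5B were alternatives. The fits on mitochondrial ribosomal RNA were chosen after seeing the data. The DESeq2, edgeR and limma fits per pair, the likelihood ratio test and the test across lines were tried on simulated data. The mitochondrial refits, the summaries of the fits and the figures were not.

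Members and gene lists were chosen with earlier results of these data known. All 9 members were named. A list gene was named when called in at least 4 pairs, or when it had the largest called change of its list in a comparison with a mean of at least 100 normalised counts, and the genes most like each member by Pearson's r. The neighbouring genes and the sequences printed were chosen with values known. Protein identities, which had been planned, were not computed. Whether equal replicate numbers pair libraries was read from the correlation of their deviations from the line means. All 3 correlations passed 0.1 in OVCAR3 ResA against OVCAR3 (0.22 to 0.64) and in OVCAR4 ResB against OVCAR4 ResA (0.45 to 0.63). In both, the mitochondrial share ran in parallel by number (2.39%, 4.93% and 7.52% in OVCAR3, 1.86%, 3.79% and 5.57% in OVCAR3 ResA). The correlations thus cannot tell paired cultures from libraries alike in that share. At least 1 did not pass in the other 8. All 3 were below 0 in OVCAR4 ResA against OVCAR4 (-0.34 to -0.06), OVCAR4 ResB against OVCAR4 (-0.41 to -0.03) and PEO6 against PEO4 (-0.37 to -0.12). The labels give no batch. No column of per-sample values lacked a sample. A genome of another build was not used for coordinates. Intervals cover the spread between libraries and floors counting error only.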

Additional observations from a re-analysis of the deposited data

Results flagged for a closer look

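The resistant-sensitive effect differed between the 7 pairs for 8 of the 9 genes, by a likelihood ratio test of the difference itself (DESeq2, all 33 libraries, adjusted over all genes, of which 70.2% gave the same result). For SOCS2 the adjusted p was 3.45e-25, with called log2 changes from -3.51 in PEO6 to 3.08 in OVCAR4 ResB. For SOCS3 it was 1.11e-23, from -2.42 in PEO4 to 1.25 in PEA2. STAT5A gave 1.98e-33, STAT5B 4.47e-24 and STAT2 1.01e-06. STAT3 gave 2.45e-07, STAT6 2.15e-08 and STAT4 1.60e-05, the last on counts near 0. Pairs of a family share their sensitive libraries, and what sets the families apart was not tested.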

How the results depend on the processing

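Of 34 calls over the 10 comparisons, 12 were made under every alternative that gave a value and 22 were lost under at least 1, and no called value changed sign. The 12 are SOCS3 in OVCAR3 ResA; SOCS2 and SOCS3 in PEA2; STAT2, SOCS2 and SOCS3 in PEO4; STAT2 and SOCS2 in PEO6; and STAT3, STAT5A, STAT5B and SOCS3 in OVCAR4 ResB against OVCAR4 ResA. Members called in OVCAR3 ResA numbered 5, but 3 without the replicate block and under each limma setting, and 2 to 3 with a replicate left out. OVCAR3 ResB went from 0 to 1 without the block, 2 with all 33 libraries, 2 with the mitochondrial covariate and 0 to 1 with a replicate left out. OVCAR4 ResA went from 0 to 2 without the block, 2 with all 33 libraries and 0 to 4 with a replicate left out, 4 of them without replicate 1. Those 4 were STAT2 and STAT5B, higher, and SOCS2 and SOCS3, lower. The fit without the libraries over 9% mitochondrial ribosomal RNA leaves 1 OVCAR4 library, so its calls are not counted here. OVCAR4 ResB went from 5 to 3 with limma on log2(TPM + 1), 0 with no filter and 2 to 7 with a replicate left out, 2 without replicate 2 or 3. PEO4 went from 5 to 3 with limma and no filter. PEO6 went from 4 to 2 under both filtered limma settings and 2 to 3 with a replicate left out. OVCAR3 ResB against OVCAR3 ResA went from 1 to 3 without the block, with all 33 libraries and with the covariate, and to 0 under the limma settings. PEO6 against PEO4 went from 4 to 2 with edgeR, 1 under both filtered limma settings, 0 with no filter and 0 to 3 with a replicate left out, 0 of them without replicate 2. The counts for PEA2, OVCAR4 ResB against OVCAR4 ResA, the test between pairs and the test across lines stayed within 1.5 times. The causes were not tested. STAT4 and SOCS1 had 58 counts or fewer per library. Where all 3 correlations between equally numbered libraries passed 0.1, dropping the replicate block lost STAT2 and STAT5B in OVCAR3 ResA (DESeq2 adjusted p = 0.155 and 0.0969). Dropping it also lost STAT2 in OVCAR4 ResB against OVCAR4 ResA (0.0654). The mitochondrial share ran in parallel by number in those lines, so pairing was not established. In the other comparisons no pairing was seen by that measure.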
